A study of Mus musculus with 6 samples.

Results

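The 10 genes of MHC class II antigen presentation described here were taken by symbol from the deposited gene table: H2-Aa, H2-Ab1, H2-Eb1, Cd74, H2-DMa, H2-DMb1, H2-DMb2, H2-Oa, H2-Ob and Ciita. They filled 11 of the 22381 rows, because Ciita is listed under 2 identifiers. The genes were picked with the difference between the groups already known, so their differences are given as a description. RNA sequencing was run on LSK cells (Lineage-Sca-1+c-Kit+), the bone marrow fraction that holds blood stem cells and early multipotent progenitors, from C57BL/6 mice aged 8 to 12 weeks. The 3 samples of the first group were Tgif1-/- and the 3 samples of the second were WT (Tgif1+/+); no other allele or treatment is given in the labels. Tgif1 encodes a homeodomain repressor. Whether the replicates were separate animals is not stated in the labels, and the table holds 1 FPKM value for each group, a count of fragments scaled to transcript length and to the mapped total. The spread between samples and the depth are therefore unknown, and no SD is given below.

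MHC class II molecules are pairs of an alpha and a beta chain that show peptides from the endosomal pathway to CD4+ T cells. The invariant chain, made by Cd74, holds new pairs together, fills their groove and directs them to endosomes. There the DM molecule exchanges the remnant of the invariant chain for peptide, and the DO molecule restrains DM. Ciita is the transactivator that switches these genes on. It has no DNA-binding domain of its own and works through RFX proteins bound to the X box and NF-Y bound to the Y box of class II promoters. Class II is best known from dendritic cells, B cells and macrophages, and some early blood progenitors carry it too.

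The promoter stretches that hold these boxes are shown because they are what the genes are known to share. RefSeq promoters (GRCm38.p6, 250 bases before to 50 after the start site) were matched for 7 genes with 8 entries; H2-Ab1, Cd74 and Ciita were not matched. In each of 6 genes the 50 bases below end on TGATTGG, which contains the Y box core read on the other strand. Capitals mark TGATTGG and, where present, the X box core AGCAAC. Only full matches are marked, and near matches were not searched, so an unmarked line need not lack an X box. H2-DMa, the other matched gene, had no TGATTGG and is not shown. All lines run 5′ to 3′ on the gene's own strand, which is the plus strand except for H2-Aa.
H2-Aa: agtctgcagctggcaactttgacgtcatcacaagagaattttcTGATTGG
H2-Eb1: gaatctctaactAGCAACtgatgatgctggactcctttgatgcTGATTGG
H2-DMb1: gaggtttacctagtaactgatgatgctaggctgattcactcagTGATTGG
H2-DMb2: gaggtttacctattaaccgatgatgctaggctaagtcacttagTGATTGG
H2-Oa: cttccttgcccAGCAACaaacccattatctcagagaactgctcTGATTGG
H2-Ob: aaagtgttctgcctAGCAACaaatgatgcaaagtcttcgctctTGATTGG

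The H2-Eb1 stretch lies at chr17:34305763-34305812 and ends 54 bases before the start site. The other stretches lie at chr17:34287867-34287916 for H2-Aa, chr17:34153085-34153134 for H2-DMb1, chr17:34145114-34145163 for H2-DMb2, chr17:34092291-34092340 for H2-Oa and chr17:34238803-34238852 for H2-Ob, and end 38 to 85 bases before the start. AGCAAC, searched on both strands, was in the promoters of H2-Eb1, H2-Oa and H2-Ob and in 14.8% of all 32851 promoters. CCAAT, the Y box core, was in a promoter of all 7 matched genes and in 37.4% of all promoters. AGCAAC followed within 60 bases by ATTGG on the same strand was in H2-Eb1, H2-Oa and H2-Ob and in 0.700% of all promoters. TGATTGG overlaps CCAAT on the other strand, was chosen after the letters were read, and was in 7.82% of all promoters. In the 3 genes with both cores, 23 to 26 bases lay between AGCAAC and TGATTGG.

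In the Tgif1-/- group the classical chains and the invariant chain had higher values than in the WT group, while the DM and DO chains had nearly the same values in both. The 3 classical chains summed to 241 FPKM in the Tgif1-/- group and 151 FPKM in the WT group. Most of these sums came from H2-Aa and H2-Ab1, whose deposited tests failed and which carry no error. The 5 DM and DO chains summed to 422 and 406 FPKM in the same groups. In log2 ratios (Tgif1-/- over WT), the 3 classical chains and Cd74 ran from 0.48 to 1.20 and the 5 DM and DO chains from -0.22 to 0.10. The median over the 10683 tested genes with a finite ratio was -0.03.

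**Figure D1:**
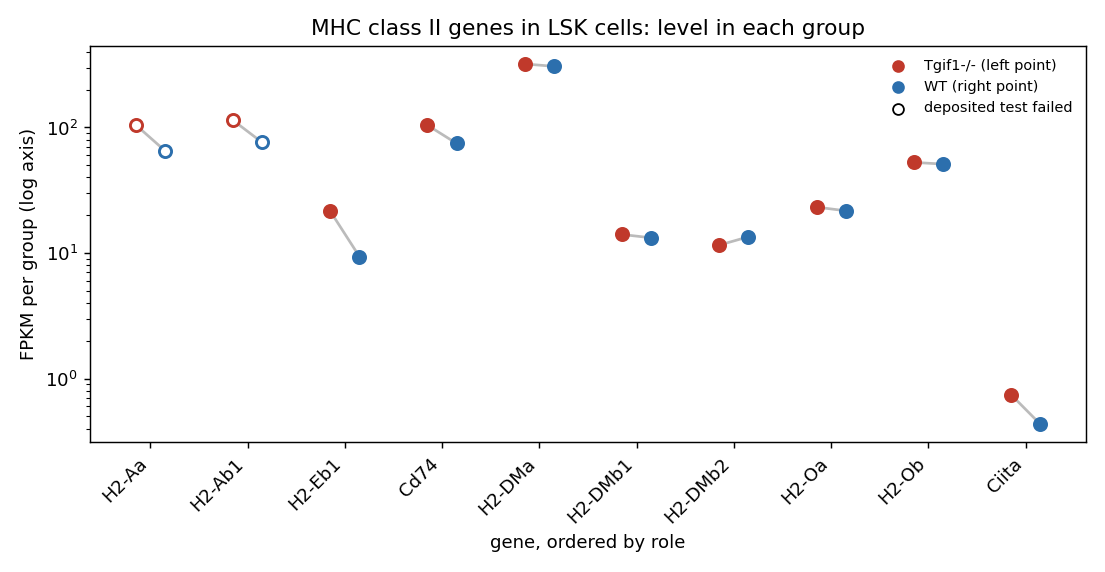
FPKM of each class II gene on a log axis, 1 value per group, the Tgif1-/- group left and the WT group right; open points are genes whose deposited test failed. The lines drop from left to right for H2-Aa, H2-Ab1, H2-Eb1, Cd74 and Ciita and are nearly level for the DM and DO chains.

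H2-Eb1 encodes the beta chain of the I-E molecule. It stood at 21.5 FPKM in the Tgif1-/- group and 9.37 FPKM in the WT group, a log2 ratio of 1.20. The standard error implied by the deposited test statistic, which is the error of the authors' model, was 0.22. H2-Eb1 was the 1 class II gene called in the authors' deposited table, with a Cuffdiff q of 2.46e-05, where a call means a tested gene with q at or under 0.05. Of all 10730 tested genes, 0.662% were called, 0.289% as higher in the Tgif1-/- group. Since the genes were picked on this contrast, nothing is read from 1 call among 8 tested members. C57BL/6 mice are known to lack the I-E alpha chain, so the H2-Eb1 transcript has no classical partner in this strain. In order of level among the 10 genes H2-Eb1 was 7th in the Tgif1-/- group and 9th in the WT group, and no spread is at hand to separate neighbours in that order. H2-Eb2, its neighbour and relative, was at 0.0168 and 0.112 FPKM in those groups and was not tested.

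H2-Aa and H2-Ab1 encode the alpha and beta chains of the I-A molecule, the class II pair of this strain. H2-Aa stood at 105 FPKM in the Tgif1-/- group and 65.4 FPKM in the WT group, a log2 ratio of 0.68. H2-Ab1 stood at 114 and 76.0 FPKM in the same groups, a log2 ratio of 0.59. Both are listed at the same block (chromosome 17, 34400154 to 34424772), and the authors' deposited table marks the test as failed for both. They therefore have values but no error, and their ratios cannot be set against any spread. The level of H2-Ab1 over that of H2-Aa was 1.09 in the Tgif1-/- group and 1.16 in the WT group, so the values of the pair lay close together in each group. The level of H2-Ab1 over that of H2-Eb1 was 5.30 in the Tgif1-/- group and 8.11 in the WT group.

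Cd74, the invariant chain gene on chromosome 18, stood at 104 FPKM in the Tgif1-/- group and 74.6 FPKM in the WT group. The log2 ratio of Cd74 was 0.48, with an error of 0.17 implied by the deposited statistic. In the authors' deposited table its Cuffdiff p was 0.00376 and its q 0.262, so it was not called. The level of Cd74 over that of H2-Aa was 0.993 in the Tgif1-/- group and 1.14 in the WT group. Cd74 and the I-A chains thus lay within a narrow band of levels per transcript length in each group, from 104 to 114 FPKM and from 65.4 to 76.0 FPKM.

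**Figure D2:**
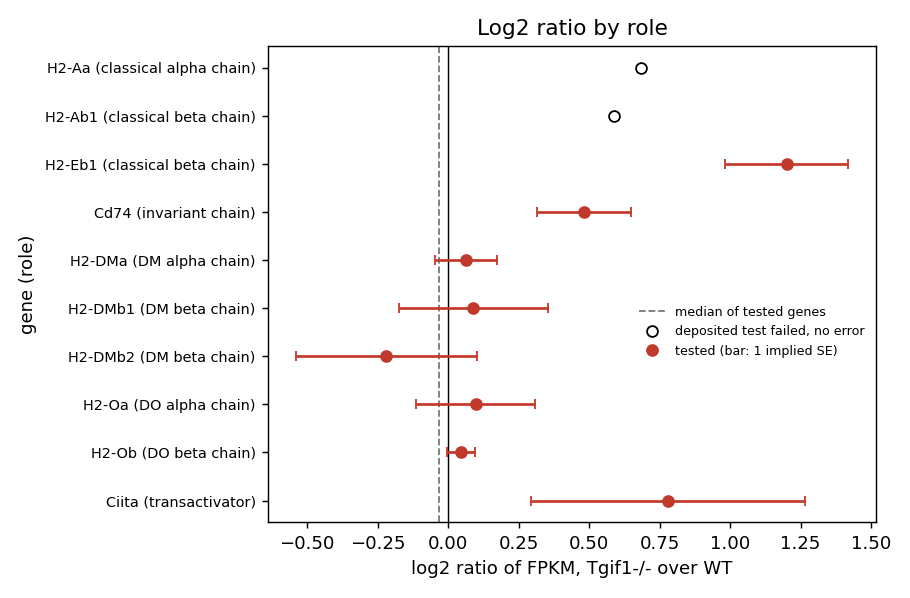
Log2 ratio of FPKM (Tgif1-/- over WT) of each class II gene in order of role, with bars of 1 implied standard error for tested genes and open points without error for failed tests; the dashed line is the median of tested genes at -0.03. H2-Eb1 stands farthest right at 1.20, and the DM and DO chains lie between -0.22 and 0.10.

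The DM chains differed little between the groups. H2-DMa, the alpha chain of DM, was the most abundant of the 10 genes, at 321 FPKM in the Tgif1-/- group and 307 FPKM in the WT group, which placed it in the top 1.81% and 1.92% of all rows. The log2 ratio of H2-DMa was 0.06 and its implied error 0.11. The genes of the DM beta chain were far lower. H2-DMb1 stood at 14.1 FPKM in the Tgif1-/- group and 13.2 FPKM in the WT group, and H2-DMb2 at 11.6 and 13.5 FPKM. Their log2 ratios were 0.09 and -0.22, with implied standard errors of 0.26 and 0.32, so each ratio was smaller than its error. The level of H2-DMa over the sum of both beta chain genes was 12.5 in the Tgif1-/- group and 11.5 in the WT group. None of the 3 genes was called.

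The DO chains, whose product is known mainly from B cells and some dendritic cells, were present in LSK cells in both groups. H2-Oa stood at 23.2 FPKM in the Tgif1-/- group and 21.7 FPKM in the WT group, and H2-Ob at 52.7 and 51.1 FPKM. The log2 ratios were 0.10 and 0.05, with implied standard errors of 0.21 and 0.05. Neither was called. The error of H2-Ob was small for its level, since the median error among genes of like expression was 0.19. The level of H2-Ob over that of H2-Oa was 2.27 in the Tgif1-/- group and 2.36 in the WT group.

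Ciita had the lowest level of the 10 genes in both groups. The tested row stood at 0.744 FPKM in the Tgif1-/- group and 0.433 FPKM in the WT group. The log2 ratio of this row was 0.78 and its implied error 0.49, its Cuffdiff p in the authors' deposited table was 0.109, and it was not called. With a pseudocount of 1 FPKM the ratio was 0.28, since both values are under 1. The second row named Ciita, at the same block on chromosome 16, was listed with too few reads to test, at 0.269 and 0.179 FPKM in those groups. The level of H2-DMa over that of Ciita was 431 in the Tgif1-/- group and 708 in the WT group.

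**Figure D3:**
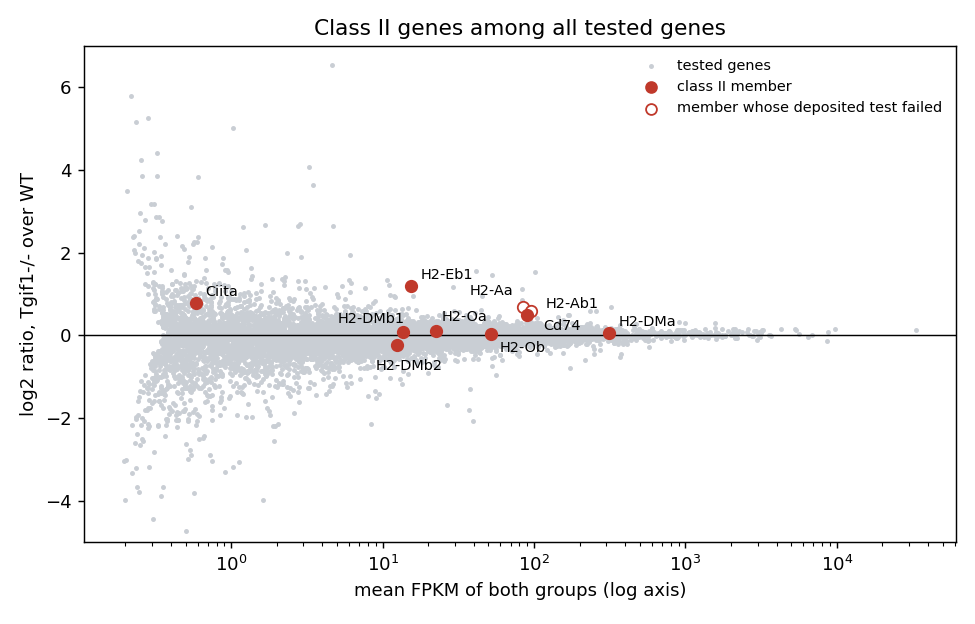
Log2 ratio (Tgif1-/- over WT) against the mean FPKM of both groups on a log axis, with tested genes as grey points and class II genes in red, open where the deposited test failed. H2-Eb1, H2-Aa, H2-Ab1 and Cd74 lie above most genes of like level, H2-DMa and H2-Ob lie near 0, and Ciita lies where ratios of low genes spread widely.

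Class II genes belong to a family, so the reads that could be shared were counted in GENCODE M21 transcripts, in stretches of 50 bases (the sources used here do not state the read length). H2-Eb1, H2-Ab1, Cd74 and H2-Ob shared 0 of their stretches with any other gene, and H2-Aa shared 0.514%. H2-DMb1 shared 22.7% of its stretches with H2-DMb2, and H2-DMb2 shared 21.2% of its own with H2-DMb1, so reads from these may have been split between them. H2-Oa shared 15.5% with BC051537, H2-DMa 8.43% with Brd2 and Ciita 1.46% with Dexi, which GENCODE M21 places on the opposite strand of the same stretch. Where strand is not stated, reads from such shared stretches cannot be told apart. By the positions listed with the deposited values, Brd2 ends at 34259262 and H2-DMa starts at 34272127, so this pair does not overlap there.

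The 8 class II genes on chromosome 17 span 224 kb in the table, from H2-Oa at 34229285 to H2-Eb1, which ends at 34453144. These are positions of the table, whose build the sources used here do not state; 0 of 10 starts equal those of GRCm38. Tgif1 lies on the same chromosome, 36.7 Mb beyond H2-Eb1. The classical chain genes H2-Aa, H2-Ab1 and H2-Eb1 adjoin each other at the same end of the cluster. H2-Ob, 9.30 kb from the block of H2-Aa and H2-Ab1, had a log2 ratio of 0.05. Whether position bears on these values was not tested. Of 34 other rows within 250 kb of a chromosome 17 member, 18 were tested, 9 higher and 9 lower in the Tgif1-/- group, with a median log2 ratio of -0.01. By Cuffdiff 2 of the 18 had an unadjusted p under 0.05 and 1 was called, where 5.41% and 0.662% of all tested genes were. The called neighbour was H2-Ke6 (Hsd17b8), a steroid dehydrogenase gene at 29.7 FPKM in the Tgif1-/- group and 23.9 FPKM in the WT group, with a log2 ratio of 0.31. Its implied standard error of 0.03 was small for its level, and its adjusted p was 1.00 once errors below the median for that expression level were raised to it, a setting under which 0.205% of tested genes were called and H2-Eb1 was still among them. Near Ciita on chromosome 16, 0 of 4 tested neighbours were called by Cuffdiff and 0 had an unadjusted p under 0.05, with Dexi at 5.00 and 6.54 FPKM and Nubp1 at 34.9 and 37.7 FPKM in the Tgif1-/- and WT groups. Near Cd74 on chromosome 18, 0 of 4 were called and 1 had an unadjusted p under 0.05, Camk2a at 41.3 and 31.4 FPKM, while Synpo was at 0.317 and 0.691 FPKM.

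**Figure D4:**
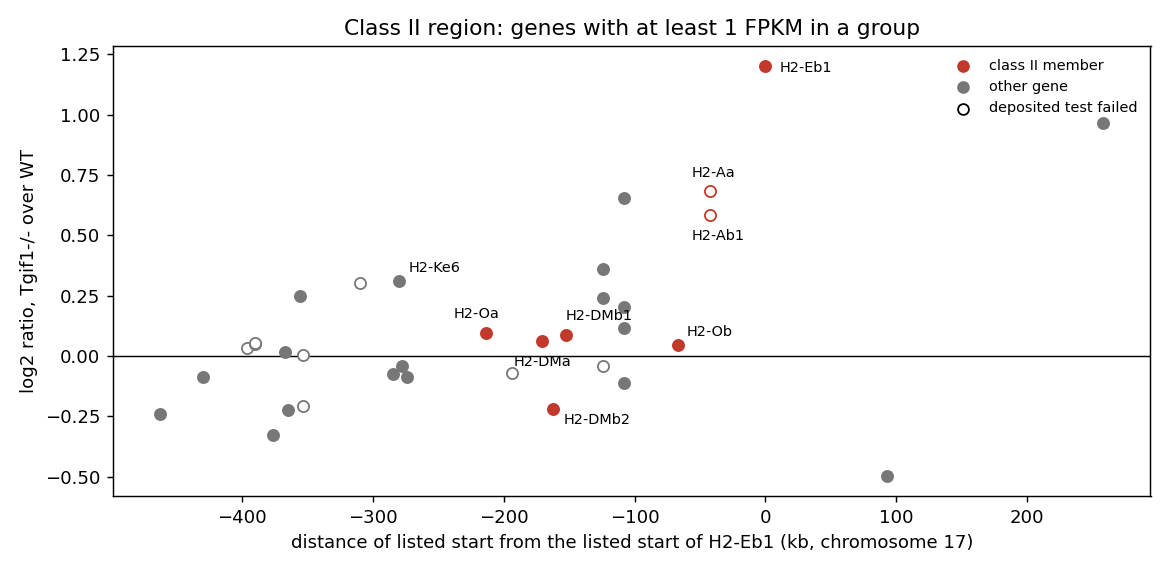
Log2 ratio (Tgif1-/- over WT) of genes that reached 1 FPKM in either group, placed by the distance of their listed start from that of H2-Eb1 in kb on chromosome 17; class II genes are red and open points had a failed test. Among the class II genes, H2-Eb1, H2-Aa and H2-Ab1 stand above 0.5, while the DM and DO genes to their left lie between -0.22 and 0.10. Of the other genes, Notch4 at 0.96 and Gm15821 at 0.65 also stand above 0.5, with implied standard errors of 1.31 and 0.51.

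Genes that act around class II, and the class I genes below, were taken from lists chosen with earlier results of these data known. Their counts are given as a description. Of 14 tested transcription factors and signalling genes upstream of class II, 6 were higher and 8 lower in the Tgif1-/- group, with a median log2 ratio of -0.02. Rfx5, a subunit of the RFX complex on the X box, was called lower in the authors' deposited table. It stood at 17.9 FPKM in the Tgif1-/- group and 22.2 FPKM in the WT group, which makes a log2 ratio of -0.31, an implied error of 0.08 and a Cuffdiff q of 0.0345. With the raised errors its adjusted p was 1.00, which ended the call. Over all tested genes 0.373% were called lower. Rfxank, another subunit, was at 4.16 FPKM in the Tgif1-/- group and 3.91 FPKM in the WT group; it was singled out after its value was seen, and it was not called.

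Lysosomal processing genes held no called gene among 9 tested, 4 higher and 5 lower, with a median log2 ratio of -0.03. By Cuffdiff, 1 had an unadjusted p under 0.05, the lysosomal membrane gene Lamp2, at 152 FPKM in the Tgif1-/- group and 168 FPKM in the WT group; that is 1 of 9, against 5.41% of all tested genes. The next smallest p was that of the legumain gene Lgmn, at 2.58 and 3.41 FPKM. Ctss, the protease known for trimming the invariant chain, was at 46.3 and 39.7 FPKM and was not called; it was singled out after its value was seen. Of 7 tested trafficking and costimulation genes, 4 were higher and 3 lower and 0 were called by Cuffdiff, with 2 lower at an unadjusted p under 0.05. These were Ap2m1, a subunit of the clathrin adaptor AP-2, at 104 FPKM in the Tgif1-/- group and 115 FPKM in the WT group, and Icosl, the ligand of ICOS, at 1.95 and 3.15 FPKM. The list median of 0.07 became -0.15 over the 5 genes that reached 1 FPKM in either group.

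MHC class I presentation, which shows peptides from the cytosol to CD8+ T cells, gives a comparison within the same table. Of 14 tested class I genes, 13 were higher and 1 lower in the Tgif1-/- group, against 42.6% higher over all tested genes. The median log2 ratio was 0.15 with a range of -0.11 to 0.48. By Cuffdiff 0 were called, and 3 had an unadjusted p under 0.05, all higher, where 1.85% of all tested genes had such a p and were higher. H2-Q6, a class Ib heavy chain, stood at 68.0 FPKM in the Tgif1-/- group and 48.7 FPKM in the WT group, and H2-D1, a classical heavy chain, at 518 and 428 FPKM. The third was Psmb8, an immunoproteasome subunit encoded between H2-DMb1 and H2-Ob, at 220 and 191 FPKM. The class I heavy chains are close relatives, and reads shared between them, which were not counted here, may leave their values uncertain. The tests of another 7 class I genes failed. By value alone, H2-K1 (1645 and 1333 FPKM), H2-Q7, Tapbp and Erap1 were higher in the Tgif1-/- group. Lower in that group were Tap1 (70.5 and 72.5 FPKM), Psme1 (1230 and 1278 FPKM) and Tapbpl (12.9 and 13.8 FPKM). These genes were named after their values were seen. The difference between the class I and class II ratios was not tested.

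**Figure D5:**
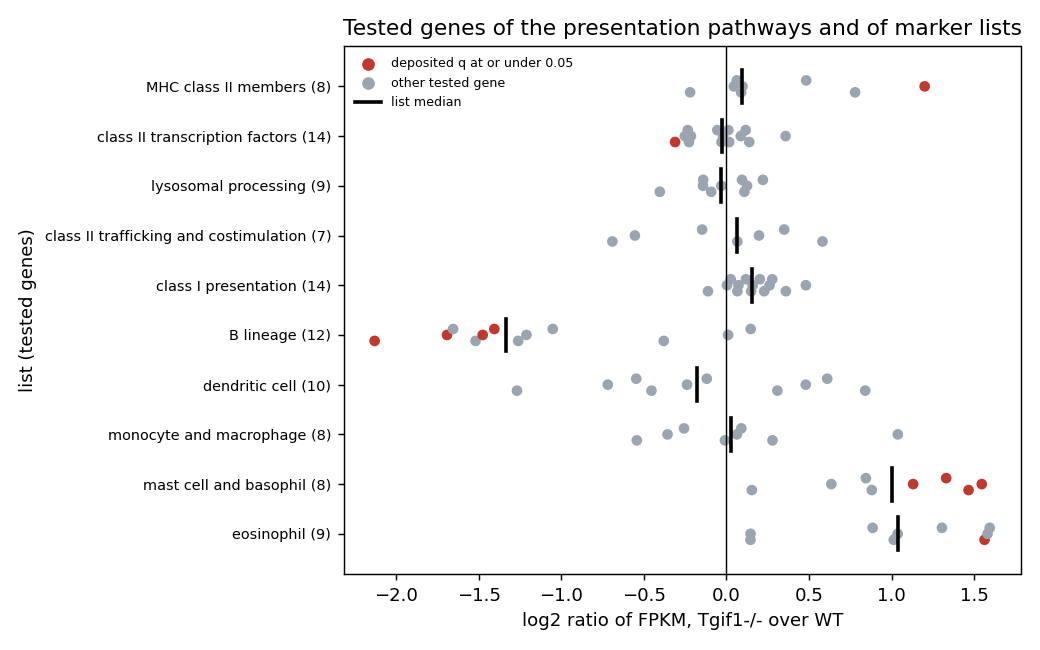
Log2 ratio (Tgif1-/- over WT) of each tested gene in 10 lists, with the number of tested genes in parentheses, the list median as a black bar and called genes in red. Class I genes sit mostly right of 0, B lineage genes left, and mast cell, basophil and eosinophil genes right.

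Cells other than stem and progenitor cells also carry class II, and in bulk RNA more cells of a type cannot be told apart from more RNA per cell. The marker lists below were chosen with earlier results of these data known, so their counts are given as a description. B lineage markers summed to 67.2 FPKM in the Tgif1-/- group and 139 FPKM in the WT group. Of 12 tested, 2 were higher and 10 lower. The called ones, 4 in number and each lower in the Tgif1-/- group, were Blnk, Cd79a, Ebf1 and Igll1; over all tested genes 0.373% were called lower. The higher ones were Cd79b, at 27.8 FPKM in the Tgif1-/- group and 27.6 FPKM in the WT group, and Cr2, at 1.38 and 1.24 FPKM, neither of them called and both named after their values were seen. Dendritic cell markers summed to 182 and 209 FPKM in the Tgif1-/- and WT groups, most of it Flt3, which progenitors also express. Of 10 tested, 4 were higher and 6 lower and 0 were called by Cuffdiff, with 0 at an unadjusted p under 0.05; Ccr7 was at 2.01 and 3.30 FPKM and Siglech at 0.881 and 1.29 FPKM. Itgax, which encodes CD11c, was at 1.87 FPKM in each group, and its test failed. Monocyte and macrophage markers summed to 379 and 373 FPKM, most of it Lyz2, with 4 of 8 tested higher, 4 lower, 0 called and 0 at an unadjusted p under 0.05; C1qa was at 0.833 and 0.405 FPKM and Cx3cr1 at 1.00 and 1.46 FPKM. None of the markers in these 3 lists was at 0 in both groups.

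Mast cell and basophil markers summed to 457 FPKM in the Tgif1-/- group and 212 FPKM in the WT group, most of it Prss34, Cpa3 and Mcpt8. All 8 tested were higher and 4 were called, Prss34, Mcpt8, Ms4a2 and Cpa3. Of all tested genes 42.6% were higher and 0.289% were called higher. Of the 11 listed, 1, Tpsab1, was at 0 in both groups. Mcpt4 was lower in the Tgif1-/- group, at 0.0811 against 0.207 FPKM, and was not tested. Tpsb2 was at 0.776 and 0.698 FPKM and Cma1 at 1.34 and 0.728 FPKM in the Tgif1-/- and WT groups, and neither was called. Mcpt4, Tpsb2 and Cma1 were named after their values were seen. Eosinophil markers summed to 79.3 and 29.5 FPKM in those groups, most of it Prg2. All 9 tested were higher and 1 was called, Prg2, beside the same shares. As these lists were chosen with earlier results known, nothing is read from their counts. The part of B lineage, dendritic, monocyte, mast, basophil and eosinophil cells in the class II values was not tested.

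Tgif1 itself was listed at 88.6 FPKM in the library group labelled Tgif1-/- and at 71.5 FPKM in the one labelled WT, with a failed test, so the targeted gene does not bear out the label and every direction above is between groups as labelled. Of the genes that define the sort, Kit was at 193 and 202 FPKM and Ly6a (Sca-1) at 120 and 88.9 FPKM in the Tgif1-/- and WT groups, and of the stem cell markers Procr was at 7.32 and 8.82 FPKM. In that list 0 of 5 tested were called by Cuffdiff and 0 had an unadjusted p under 0.05. Among lineage markers used for depletion 0 of 6 tested were called and 2 were lower at an unadjusted p under 0.05, among them Ly6g at 0.558 and 3.29 FPKM. Of 8 tested T and NK cell markers 0 were called and 0 had an unadjusted p under 0.05, with Ncr1 at 0.969 and 0.401 FPKM and Cd3g listed at 0 in the Tgif1-/- group and at 0.677 FPKM in the WT group.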

How the data were processed

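RNA was taken from LSK cells, about 200 ng per the labels' protocols, in 3 Tgif1-/- and 3 WT samples. Reads were aligned with TopHat and groups compared with Cuffdiff, per the submitters' processing notes, without versions; these name hg19, a human build, while the identifiers are mouse. The deposited table gives 1 FPKM value per group, a log2 fold change of WT over Tgif1-/- (turned round here), a test statistic (score), and p-values and q-values, made by the authors, per the file headers. The error of a gene is its log2 ratio divided by the deposited statistic. Depth is unknown.

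Of 22381 rows, 10730 were tested, 3143 failed, 8455 had too few reads, 43 too little data and 10 too much. A symbol on several rows was taken from the higher one. Members and lists were chosen with earlier results of these data known. Named from each list were up to 4 called genes reaching 1 FPKM in either group or, where none was called, the 2 with the smallest p; likewise for neighbours within 250 kb. Of the genes this rule selects, 1 is left out of the text. Likeness to other genes was not computed, since 2 group values give no pattern. Alternatives were q of 0.01 and 0.1, a minimum of 1 FPKM, pseudocounts of 0.1 and 1, centring, and an error floor at the median of 20 expression bins. The floor was run on simulated data whose noise was drawn from the deposited errors. That run cannot show whether small deposited errors are too small. Python 3.11.15, pandas 2.3.3, numpy 2.4.6, scipy 1.17.1 and matplotlib 3.10.9 were used.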

Additional observations from a re-analysis of the deposited data

How the results depend on the processing

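Calls among all tested genes were 71, and 39 at a q of 0.01, 99 at 0.1, 66 over genes reaching 1 FPKM in either group and 22 with the error floor. H2-Eb1 was the 1 class II gene called under each of these 4 alternatives. Log2 ratios of the class II genes kept their sign with each pseudocount and with centring on the median of tested genes, and that of Ciita moved from 0.78 to 0.28 with a pseudocount of 1, because both its values are under 1 FPKM. The B lineage median was -1.33 and, with a pseudocount of 1, -0.90. No paired analysis was possible because the table holds 1 value per group, and samples could not be left out in turn for the same reason. The failed tests of H2-Aa and H2-Ab1 leave the main class II pair without an error, and low levels limit what Ciita can show.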

Other observations

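Genes of the class II region that fall outside the lists were seen only after their values were examined. Notch4, a Notch receptor at the far end of the window beyond H2-Eb1, was at 2.40 FPKM in the Tgif1-/- group and 1.23 FPKM in the WT group. Its log2 ratio of 0.96 was smaller than its implied error of 1.31, and it was not called. Btnl2, a butyrophilin-like gene next to the class II genes, was at 0.0194 and 0.118 FPKM in those groups and was not tested. Brd2, a bromodomain gene between H2-Oa and H2-DMa, was at 105 and 111 FPKM with a failed test. Gm15821, which shares a listed block with Psmb8 and Tap2, was at 2.68 and 1.70 FPKM, with an implied error of 0.51, and was not called.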
